A study of Mus musculus with 2 samples.

Results

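Distal calcium and magnesium handling was followed through 10 genes, taken by symbol from a table of 45777 genes: the calcium channel gene Trpv5, the calbindin genes Calb1 and S100g, the calcium exit genes Slc8a1, Atp2b1 and Atp2b4, the calcium sensor gene Casr, the magnesium genes Trpm6 and Cnnm2, and the uromodulin gene Umod. All 10 reached 1 CPM (the read count per unit of library size, scaled by the TMM method) in at least 1 library, the level at which a gene is called expressed here. The series has 2 bulk RNA-seq libraries from whole kidneys. One comes from mice with a conditional knockout (CKO) of Inmt, an amine N-methyltransferase gene, restricted to the proximal tubules, and the other from control mice. The labels give standard chow and no treatment for both, and do not state the Cre driver, the strain, the age, the sex or the number of animals behind a library. The 10 genes are known mainly from segments downstream of the proximal tubule, where the labels place no deletion.

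Most filtered calcium and magnesium is taken back before and along the loop of Henle, and the distal convoluted and connecting tubules set what is finally lost in urine. There calcium enters through the apical channel TRPV5, is carried across the cell by calbindins, and leaves through the sodium-calcium exchanger and plasma membrane calcium pumps. Magnesium enters through TRPM6 in the distal convoluted tubule, and CNNM2 acts at the opposite, basolateral side. In the thick ascending limb the calcium-sensing receptor adjusts paracellular uptake of both ions, and the same segment secretes uromodulin, the most abundant protein of normal urine.

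The CKO library held 38136616 counted reads and the control library 33618076, on 22699 and 20332 genes. Inmt had 124 CPM in the CKO library and 587 CPM in the control library, so 21.1% of the control level remained. Each group is 1 library, so no difference below has a replicate check, and no p-value can be given. Intervals on levels are exact Poisson and those on ratios exact Clopper-Pearson 95% intervals, cover counting error only, and compare 2 libraries rather than 2 conditions. Of 13 fixed proximal tubule markers, 12 had log2 ratios below 0 and 6 fell short of the control level by 2-fold or more, with a summed level of 20578 CPM in the CKO library against 44753 CPM in the control library. That count of 6 was 1 with total counts, with the authors' FPKM and with their TPM. For this and the counts that follow, the share over all 15129 expressed genes was 10.3% at least 2-fold higher and 1.66% at least 2-fold lower. Of 11 tubular injury genes, 10 were at least 2-fold higher (5594 CPM in CKO against 592 CPM in control summed), as were 9 of 10 macrophage markers (336 CPM in CKO against 73.8 CPM in control). Of 6 erythroid markers, 5 were expressed and 4 of these were at least 2-fold lower (193 CPM in CKO against 505 CPM in control), a count that was 3 with total counts and 1 with the authors' TPM. Of 8 lymphocyte markers, 3 were expressed and all 3 were at least 2-fold higher, with 1 to 5 called over the alternatives. Of these, Cd3g (1.17 CPM in CKO against 0.17 CPM in control) and Lck (2.68 CPM against 0.50 CPM) reached 1 CPM in the CKO library only. The minimum thus admitted them where they were higher. Below the minimum, Cd3e, Cd2 and Nkg7 were higher in CKO, and Cd79a (3 reads in CKO, 6 in control) and Ms4a1 (0 and 6) lower. Summed over all 8, the level was 18.3 CPM in CKO against 5.18 CPM in control. None (0) of 6 podocyte markers (420 CPM in CKO against 415 CPM in control) passed 2-fold.

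Among the 10 genes, Trpv5 was 4.51-fold higher in the CKO library, and the calbindin genes S100g and Calb1 were 1.78-fold and 1.60-fold lower, both short of 2-fold. Umod was 1.57-fold higher, Atp2b4 1.45-fold and Trpm6 1.36-fold, and the other four genes lay between 1.37-fold lower and 1.16-fold higher. A gene was called at 2-fold or more on the log2 ratio of CPM + 0.5, CKO over control. By that limit 1 of the 10 genes, Trpv5, was called higher, where 10.3% of all 15129 expressed genes were called higher. None (0) of the 10 was called lower, where 1.66% of all expressed genes were, so both counts sit near the background. With a limit of 1.5-fold, Trpv5 and Umod were higher (2 of 10, against 19.3% of all expressed genes), and S100g and Calb1 were lower (2 of 10, against 6.85%). The median log2 ratio of the 10 was 0.15, against 0.01 for all expressed genes, with 6 above 0 and 4 below. Less RNA per cell and fewer cells of a type cannot be told apart in whole-kidney RNA.

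**Figure D1:**
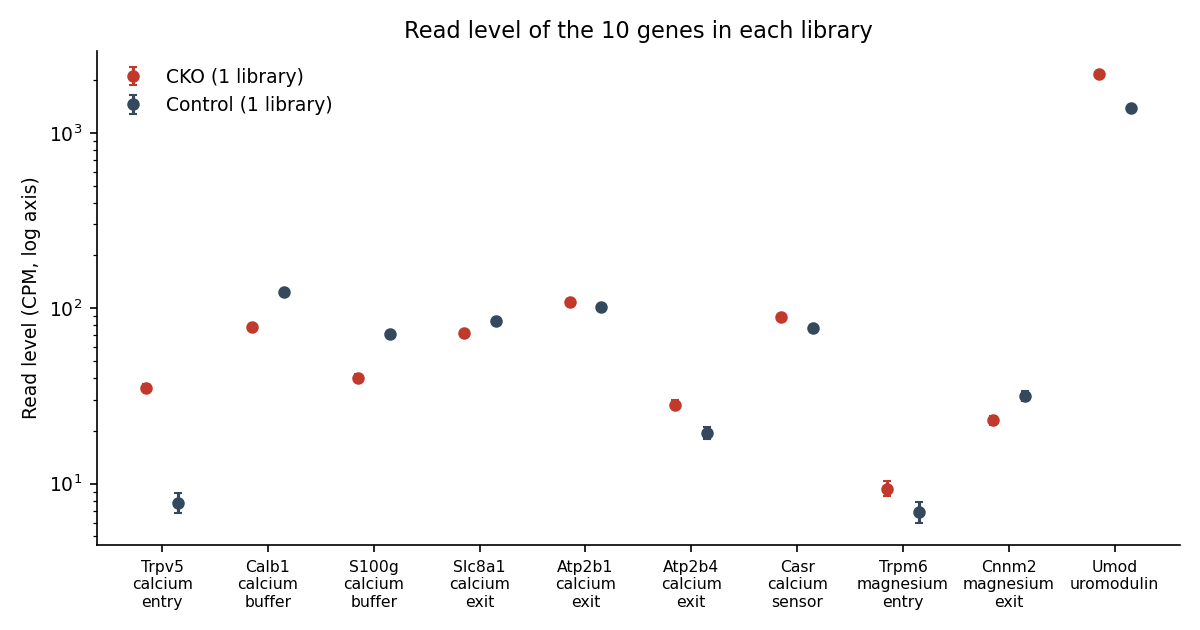
Read level of the 10 genes in CPM on a log axis, with the CKO library left of the control library for each gene and 95% exact Poisson intervals that are often smaller than the point. Trpv5 shows the widest gap on the log axis (35.0 CPM in the CKO library, 7.77 CPM in the control library), and both calbindin genes lie lower in the CKO library.

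Trpv5 encodes the epithelial calcium channel that forms the entry step in the distal convoluted and connecting tubules. It had 1492 reads in the CKO library and 234 in the control library, or 35.0 CPM (33.3 to 36.9) against 7.77 CPM (6.81 to 8.83). The count intervals lie far apart, and the ratio of 4.51 has a counting interval of 3.93 to 5.20. Its log2 ratio of 2.10 was exceeded by 1.62% of all expressed genes. The ratio did not depend on the library scaling for its direction, with log2 values of 1.92 to 2.52 over 7 alternatives.

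Trpv6, the closest relative of Trpv5 and a calcium channel best known from the intestine, was also higher. It had 198 reads in the CKO library and 26 in the control library, a 5.39-fold higher level (3.57 to 8.45). The number of Trpv5 reads per Trpv6 read was 7.54 in the CKO library and 9.0 in the control library, a ratio of 0.84 with a 95% interval of 0.54 to 1.29 on the log scale (Woolf), so a difference between the paralogs was not detectable at this depth. Both genes lie on chromosome 6 (GRCm38.p6), Trpv5 at 41651661 to 41681224 and Trpv6 at 41620619 to 41636405, with 15.3 kb between them. The paralogs resemble each other in sequence, and how reads that match both were counted is not given in the sources used here.

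Only 2 other expressed genes lie within 500 kb of Trpv5, and both were at least 2-fold higher in the CKO library. One is Trpv6 and the other is Ephb6, a gene for an Eph receptor without kinase activity, whose values were seen before it was chosen for mention. Ephb6 had 222 reads in the CKO library and 21 in the control library (5.21 CPM in CKO against 0.70 CPM in control), and it ends 109 bases from Trpv6. Trpv6 was at 4.65 CPM in CKO against 0.86 CPM in control. Trpv6 and Ephb6 thus reached 1 CPM in the CKO library only, where they were higher. The minimum itself admitted them that way, so their count of 2 is no test of the locus. The 3 neighbours thus had log2 ratios of 2.10 for Trpv5, 1.92 for Trpv6 and 2.25 for Ephb6. Over all expressed genes, 10.3% were at least 2-fold higher in the CKO library and 1.66% at least 2-fold lower. The few neighbours of the other genes were not tested against those shares. No expressed neighbour within 500 kb was at least 2-fold apart for Calb1 (0 of 4), S100g (0 of 6), Slc8a1 (0 of 2), Atp2b1 (0 of 4) or Trpm6 (0 of 4), and 3 of 15 neighbours of Atp2b4 and 2 of 23 of Cnnm2 were at least 2-fold higher. Around Casr 1 of 13 was higher and 1 lower by that limit. Inmt is on chromosome 6 too, 13.5 Mb from Trpv5.

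The 200 bases from 250 to 51 before the annotated start are shown for the channel pair and for the more abundant calbindin gene, because Trpv5 and S100g had the largest log2 ratios of the 10 in each direction and Trpv6 lies beside Trpv5. Sequences are from RefSeq (GRCm38.p6), which has such an entry for 9 of the 10 genes, Calb1 being the exception. The start used for Trpv5 lies inside the span of the gene given above, so its window does too. Capitals mark AGGTCA, a short element read by many nuclear receptors, searched on both strands (as TGACCT on the other).
Trpv5 (chr6:41680774-41680973, minus strand): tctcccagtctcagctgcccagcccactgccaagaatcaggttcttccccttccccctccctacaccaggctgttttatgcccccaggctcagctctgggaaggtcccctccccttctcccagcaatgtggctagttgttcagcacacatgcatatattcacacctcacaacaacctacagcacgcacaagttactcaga
Trpv6 (chr6:41636456-41636655, minus strand): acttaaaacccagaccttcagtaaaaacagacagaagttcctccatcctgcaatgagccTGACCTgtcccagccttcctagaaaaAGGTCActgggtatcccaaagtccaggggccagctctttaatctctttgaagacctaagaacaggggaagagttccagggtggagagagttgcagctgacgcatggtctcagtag
S100g (chrX:162964650-162964849, minus strand): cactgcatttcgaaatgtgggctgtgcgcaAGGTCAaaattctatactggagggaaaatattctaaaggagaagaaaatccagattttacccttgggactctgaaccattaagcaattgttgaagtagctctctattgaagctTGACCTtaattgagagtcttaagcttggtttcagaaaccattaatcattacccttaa
AGGTCA occurred 2 times each in the S100g and Trpv6 windows and not in the Trpv5 window, and 11.4% of all 32851 windows of this length hold it. Among the 9 genes with an entry, S100g was the 1 with AGGTCA. The channel pair, higher together, therefore did not share this element in these windows, and a match describes letters only. A second element, the HNF1 half-site GTTAAT, was searched in the same way. It was absent from the windows shown. Among the 9 genes with an entry it occurred for 1, Umod, and 5.33% of all windows hold it.

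The calbindins bind calcium that has entered the cell and shuttle it to the basolateral membrane. S100g, which encodes the smaller calbindin, had 1702 reads in the CKO library and 2147 in the control library. Its level was 40.0 CPM (38.1 to 41.9) in the CKO library and 71.3 CPM (68.3 to 74.4) in the control library, 1.78-fold lower (1.67 to 1.90). Of all expressed genes, 97.2% had a higher log2 ratio than its -0.83. S100g (chromosome X, 162961992 to 162964599) lies inside Ctps2, a CTP synthase gene on the opposite strand, which, named after its values were seen, had 30.7 CPM in the CKO library and 28.4 CPM in the control library. The libraries were made with a stranded kit, but the strand setting of the count is not given in the sources used here.

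Calb1, the gene of the larger calbindin and a classic marker of the distal convoluted and connecting tubules, had 3318 reads in the CKO library and 3747 in the control library. Its level was 77.9 CPM (75.3 to 80.6) against 124 CPM (120 to 128), 1.60-fold lower (1.52 to 1.67). Both calbindin genes were thus lower, S100g slightly more so, with 0.51 S100g reads per Calb1 read in the CKO library and 0.57 in the control library, a ratio of 0.90 (0.83 to 0.97). Ratios between genes of the same library need no library scaling. Per Calb1 read there were 0.45 Trpv5 reads in the CKO library and 0.062 in the control library, 7.20 times as many (6.23 to 8.33). Per S100g read the Trpv5 count was 8.04 times as high (6.91 to 9.36).

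**Figure D2:**
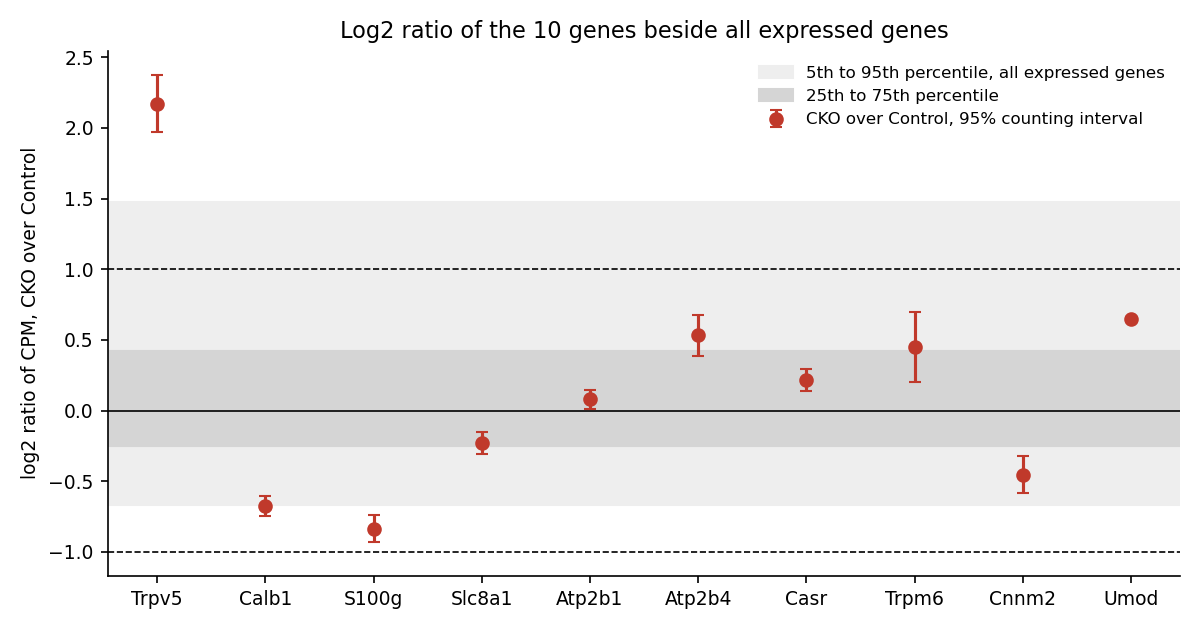
Log2 ratio of CPM (CKO over control) of each gene with its 95% counting interval, over grey bands for all expressed genes (log2 of CPM + 0.5, 5th to 95th and 25th to 75th percentile) and dashed lines at 2-fold. Trpv5 lies above the outer band, S100g lies below it, Calb1 sits at its lower edge, and the other genes lie within it.

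Calcium leaves the cell through the sodium-calcium exchanger encoded by Slc8a1 and the plasma membrane calcium pumps encoded by Atp2b1 and Atp2b4. Slc8a1 had 3084 reads in the CKO library and 2555 in the control library, or 72.4 CPM (69.9 to 75.0) against 84.9 CPM (81.6 to 88.2). That is 1.17-fold lower, with a log2 ratio of -0.23 that became positive with total counts (0.09), with the authors' FPKM (0.09) and with their TPM (0.20). Atp2b1, the widely expressed pump gene, had 4594 reads in the CKO library and 3075 in the control library, or 108 CPM (105 to 111) against 102 CPM (98.5 to 106). The 2 intervals overlap, and the ratio was 1.06 (1.01 to 1.11).

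Atp2b4 had 1199 reads in the CKO library and 586 in the control library, or 28.2 CPM (26.6 to 29.8) against 19.5 CPM (17.9 to 21.1), 1.45-fold higher (1.31 to 1.60). Atp2b4 reads per Atp2b1 read were 0.26 in the CKO library and 0.19 in the control library, 1.37 times as many (1.23 to 1.53). The exit genes are also transcribed outside the distal nephron, Atp2b4 and Slc8a1 in muscle among other cells. Of 7 smooth muscle and pericyte markers, all 7 had log2 ratios above 0 and 2 (4 with the authors' TPM) were at least 2-fold higher in the CKO library, with a summed level of 308 CPM in CKO against 193 CPM in control and no marker at 0 in either library. None (0) of 7 endothelial markers passed 2-fold (480 CPM in CKO against 516 CPM in control summed). The part of these cells, or of the macrophages above, in the exit genes' values was not tested.

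Casr encodes the calcium-sensing receptor, which in the thick ascending limb restrains the uptake of calcium and magnesium. It had 3787 reads in the CKO library and 2306 in the control library, or 88.9 CPM (86.1 to 91.8) against 76.6 CPM (73.5 to 79.8), 1.16-fold higher (1.10 to 1.22). Set against Slc12a1, the sodium-potassium-chloride cotransporter gene of the same segment, Casr was slightly lower, with 0.123 Casr reads per Slc12a1 read in the CKO library and 0.133 in the control library, a ratio of 0.93 (0.88 to 0.98).

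Trpm6 encodes the apical magnesium channel of the distal convoluted tubule. It was the shallowest of the 10 genes, with 399 reads in the CKO library and 207 in the control library, or 9.37 CPM (8.47 to 10.3) against 6.87 CPM (5.97 to 7.88). The ratio was 1.36 (1.15 to 1.62). Set against Slc12a3, the thiazide-sensitive cotransporter gene of the same segment, its ratio was 1.11 with an interval of 0.94 to 1.32, so a difference from Slc12a3 was not detectable at this depth. Cnnm2, whose product acts in basolateral magnesium transport and is mutated in an inherited magnesium wasting disorder, had 977 reads in the CKO library and 947 in the control library. At 22.9 CPM (21.5 to 24.4) against 31.5 CPM (29.5 to 33.5) it was 1.37-fold lower (1.25 to 1.5), with a log2 ratio of -0.45 that was 0.04 with the authors' TPM. The 2 magnesium genes therefore lay on opposite sides, with 1.87 times as many Trpm6 reads per Cnnm2 read in the CKO library (1.54 to 2.26).

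Umod, at chromosome 7, 119462708 to 119479262, had by far the most reads of the 10, with 92415 in the CKO library and 41721 in the control library. Its level was 2170 CPM (2156 to 2184) in the CKO library and 1386 CPM (1372 to 1399) in the control library. The ratio of 1.57 has a narrow counting interval of 1.55 to 1.58, and 17.5% of all expressed genes had a higher log2 ratio. Of 16 expressed genes within 500 kb of Umod, none (0) was at least 2-fold higher and 3 were at least 2-fold lower. Over all expressed genes, 10.3% were higher and 1.66% lower by that limit, and the reason for the 3 lower neighbours was not tested.

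Other thick ascending limb genes differed from Umod in size and, for some, in direction. Of 13 markers of that segment, none (0) passed 2-fold either way, 9 had log2 ratios above 0, and the median was 0.32. With total counts 1 of them was called higher and the median was 0.64, and with the authors' TPM these values were 1 and 0.78. Slc12a1 was 1.25-fold higher, and Umod reads per Slc12a1 read were 3.01 in the CKO library and 2.40 in the control library, 1.25 times as many (1.23 to 1.28). The claudin gene Cldn19 (1.72-fold higher), its partner Cldn16 (1.51-fold) and the prostaglandin receptor gene Ptger3 (1.47-fold) had ratios nearer to that of Umod. Egf, which encodes epidermal growth factor and is made in the thick ascending limb and distal convoluted tubule, was 1.62-fold lower. Umod reads per Egf read were 3.37 in the CKO library and 1.33 in the control library, 2.53 times as many (2.48 to 2.58).

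Levels of different genes can be compared only per length, for which the authors' TPM values serve. In the CKO library the order was Umod (1891 TPM), S100g (188), Calb1 (61.3), Atp2b1 (34.4), Casr (26.2), Trpv5 (26.1), Cnnm2 (15.5), Slc8a1 (8.59), Atp2b4 (7.38) and Trpm6 (3.19). In the control library Umod (901 TPM), S100g (250), Calb1 (73.0), Atp2b1 (24.5) and Casr (16.8) kept ranks 1 to 5, followed by Cnnm2 (15.1), Slc8a1 (7.43), Trpv5 (4.12), Atp2b4 (3.85) and Trpm6 (1.70). Trpv5 thus ranked 6 in the CKO library and 8 in the control library, the widest shift among the 10. Of neighbours in these orders, Casr and Trpv5 in the CKO library and Trpv5 and Atp2b4 in the control library had overlapping counting intervals, and with 1 library per group no spread between animals is known for any of them.

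**Figure D3:**
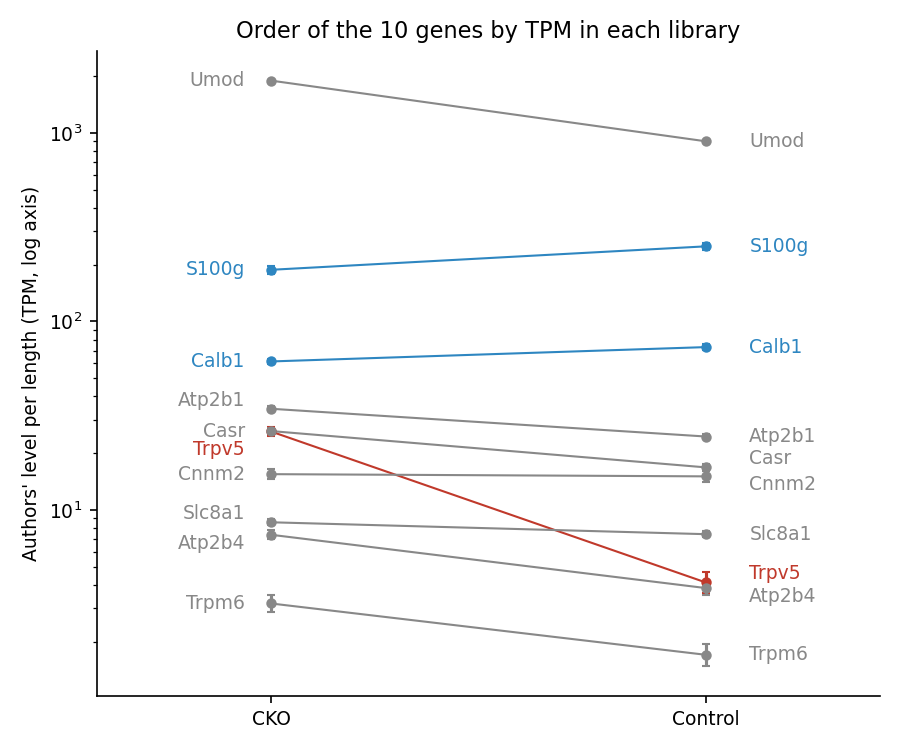
TPM of the 10 genes on a log axis, with the CKO library on the left, the control library on the right, 95% counting intervals and lines joining the 2 values of a gene. Trpv5 crosses Slc8a1 and Cnnm2 between the libraries, with rank 6 in the CKO library against rank 8 in the control library, while Umod, S100g, Calb1, Atp2b1 and Casr hold ranks 1 to 5.

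The segment where the calcium genes act gave the setting for these values. Of 9 distal convoluted tubule markers, none (0) passed 2-fold, 4 had log2 ratios above 0 and the median was -0.03, which became 0.29 with total counts and 0.38 with the authors' TPM. Slc12a3 was 1.23-fold higher and the lactate and pyruvate carrier gene Slc16a7 1.43-fold higher, whereas Pvalb, encoding the calcium buffer parvalbumin, was 1.56-fold lower and the transcription factor gene Emx1 1.46-fold lower. Sall3, another transcription factor gene, was 1.31-fold higher on 3.99 CPM in CKO against 3.06 CPM in control. Relative to Slc12a3, Trpv5 reads were 3.67 times as many in the CKO library (3.19 to 4.23) and Calb1 reads 1.96-fold fewer (1.86 to 2.07).

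Of 7 connecting tubule markers, none (0) passed 2-fold and 6 had log2 ratios above 0, with a median of 0.25. With total counts 1 was called higher and the median was 0.57, and with the authors' TPM these values were 1 and 0.67. The sodium channel subunit genes Scnn1b and Scnn1g were 1.83-fold and 1.3-fold higher and Hsd11b2, which inactivates glucocorticoids, 1.27-fold higher, while the kallikrein gene Klk1 was 1.48-fold lower. Farther down, 2 of 9 principal cell markers (median 0.43) and 2 of 9 intercalated cell markers (median 0.28; 1 called with FPKM, 3 with TPM) passed 2-fold upward and none (0) downward. The water channel gene Aqp2 was at 116 CPM in the CKO library and 56.8 CPM in the control library, and the sialyltransferase gene St6gal1 at 22.3 CPM in CKO against 9.53 CPM in control. Among intercalated cell markers Aqp6 was at 39.2 CPM in CKO against 17.2 CPM in control and Kit at 20.0 CPM in CKO against 9.17 CPM in control. The part of segment makeup in the values of the 10 genes was not tested.

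**Figure D4:**
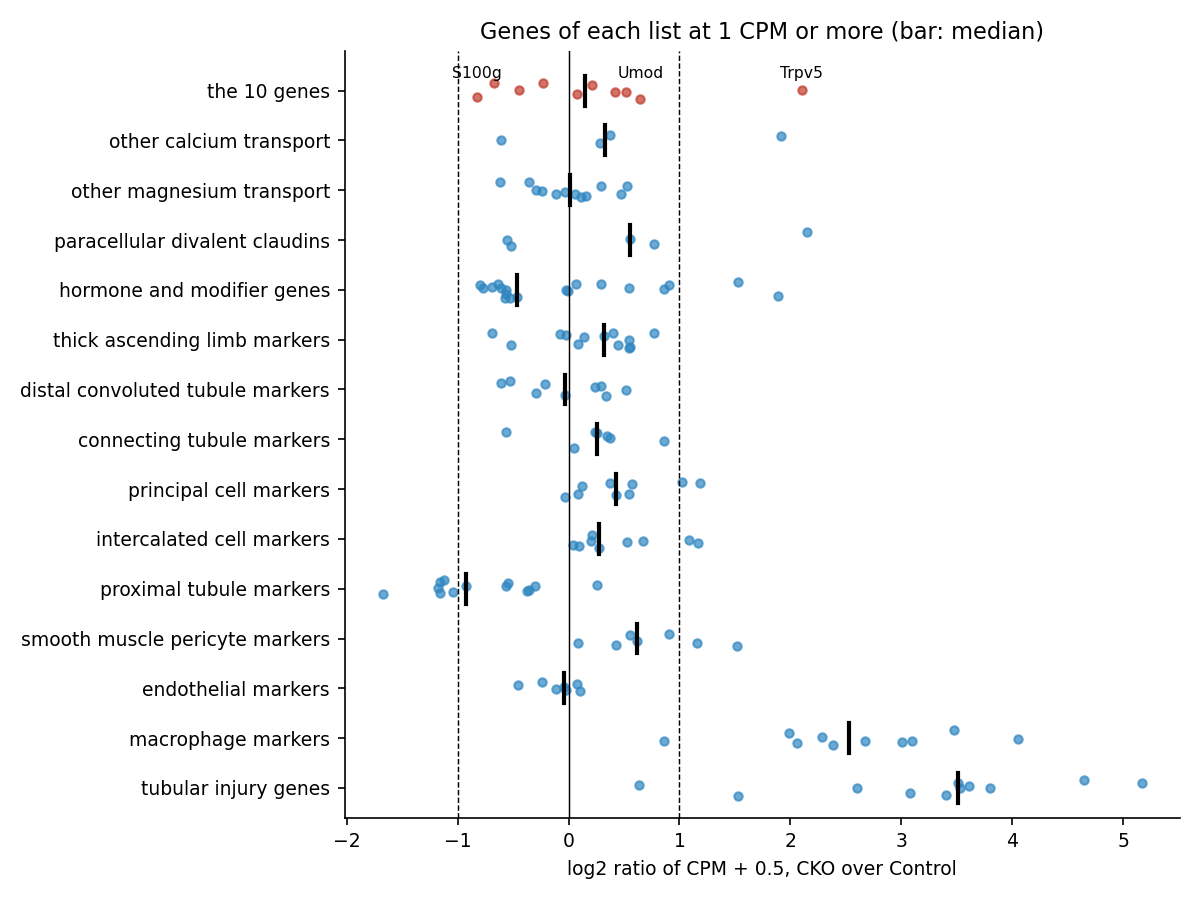
Log2 ratio of CPM + 0.5 (CKO over control) for each expressed gene of 15 lists, with a black bar at each list's median and dashed lines at 2-fold. The 10 genes spread from -0.83 for S100g to 2.10 for Trpv5, wider than the thick ascending limb (-0.69 to 0.77) and distal convoluted tubule (-0.61 to 0.52) markers. Trpv5 alone sets that upper end, with Umod next at 0.65. Other lists drawn also spread widely, such as the claudins (-0.55 to 2.15).

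Other genes of calcium and magnesium transport lay mostly within 2-fold. Of 8 other calcium transport genes, 4 were expressed and 1, Trpv6, was at least 2-fold higher. The mitochondrial exchanger gene Slc8b1 was 1.31-fold higher and the pump gene Atp2b2 1.25-fold higher, with an interval for Atp2b2 of 0.97 to 1.63. Of 12 other magnesium transport genes, all 12 were expressed and none (0) passed 2-fold, with a median of 0.01 (-0.01 with DESeq2 size factors, 0.42 with the authors' TPM). Trpm7, the widely expressed relative and channel partner of Trpm6, had 147 CPM in the CKO library and 142 CPM in the control library, a ratio of 1.04 (0.999 to 1.08). The mitochondrial magnesium channel gene Mrs2 was 1.54-fold lower and Magt1 1.28-fold lower (higher in the authors' TPM, 43.7 in CKO against 41.7 in control), while Arl15, a small GTPase gene, was 1.45-fold higher and Nipa1 1.43-fold higher.

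Among 6 claudins that shape or neighbour paracellular divalent cation transport, 5 were expressed and 1 was at least 2-fold higher, or 2 with total counts, FPKM or TPM. The 1 was Cldn3, at 15.5 CPM in the CKO library and 3.12 CPM in the control library. Cldn2, the proximal tubule cation pore gene, was 1.47-fold lower on 470 CPM in CKO against 691 CPM in control. Of the listed claudin genes that also serve as thick ascending limb markers, Cldn16 and Cldn19 were higher, as given above with Umod. Cldn10, the other such gene, was 1.43-fold lower, at 103 CPM in CKO against 148 CPM in control.

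Among 20 hormone and modifier genes, 19 were expressed, 2 passed 2-fold upward and none (0) downward, with a median of -0.47. Of the 19, 7 had log2 ratios above 0 and 12 below 0. With total counts 4 passed upward and the median was -0.15, and with the authors' TPM these values were 3 and -0.08. Cyp27b1, which makes active vitamin D, was 3.05-fold higher, at 16.6 CPM (CKO library) against 5.45 CPM (control library). Anxa2, whose product with that of S100a10 helps bring TRPV5 to the cell surface, was 3.75-fold higher at 105 CPM in CKO against 27.9 CPM in control, and S100a10 was 1.89-fold higher at 50.9 CPM in CKO against 27.0 CPM in control. Calcr, the calcitonin receptor gene, was low in both libraries, at 1.62 CPM in CKO against 0.66 CPM in control. Fxyd2, a sodium pump subunit gene linked to magnesium loss, was 1.52-fold lower at 1073 CPM in CKO against 1636 CPM in control. Also lower were the klotho gene Kl (1.74-fold), the vitamin D receptor gene Vdr (1.71-fold) and the parathyroid hormone receptor gene Pth1r (1.38-fold). Cyp24a1, of the same list, was 1.46-fold higher, at 38.5 CPM in CKO against 26.3 CPM in control. These are whole-kidney values and are not assigned to a segment. The part of the proximal tubule, whose markers were mostly lower as given above, was not tested for these genes.

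Genes around uromodulin itself lay within 2-fold for those named here. Hpn, encoding the protease hepsin that releases uromodulin into urine, was 1.46-fold lower, at 280 CPM in CKO against 409 CPM in control. Prss8, a second protease gene, was at 295 CPM in CKO against 306 CPM in control (higher in TPM, 358 in CKO against 277 in control), and Gp2, the closest relative of Umod, was at 3.48 CPM in CKO against 2.26 CPM in control.

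**Figure D5:**
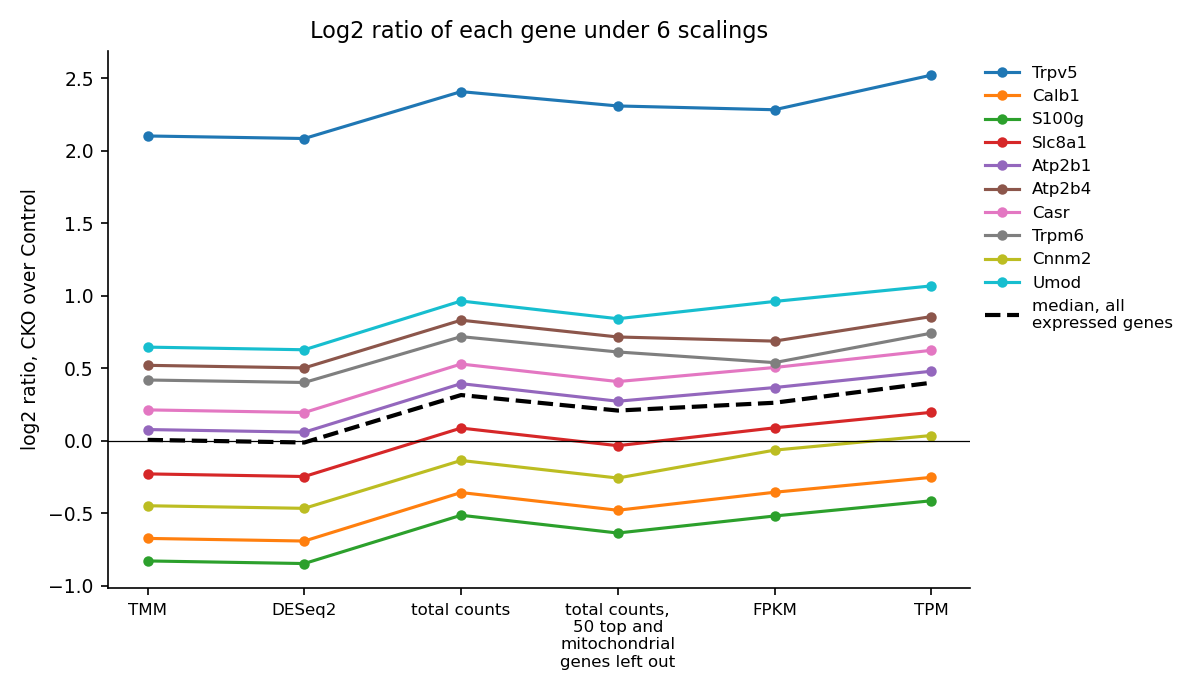
Log2 ratio (CKO over control) of each gene under 6 scalings of the libraries, with the median of all expressed genes as a dashed line. The order of the 10 genes stays the same from left to right, Trpv5 stays on top and S100g at the bottom, and Slc8a1 and Cnnm2 cross 0 where the median of all genes is higher.

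The scaling moved the median of all genes. As a log2 ratio over all expressed genes it was 0.01 with TMM, 0.32 with total counts, 0.26 with the authors' FPKM and 0.40 with their TPM. Relative to that median, over all alternatives, Trpv5 lay 1.92 to 2.18 above, Umod 0.58 to 0.72 above, S100g 0.75 to 0.89 below and Calb1 0.60 to 0.74 below. Slc8a1 (0.15 to 0.29 below) and Cnnm2 (0.33 to 0.51 below) stayed under the median of all genes in each of them too, including those where their own ratio was positive.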

How the data were processed

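Whole-kidney RNA from 1 CKO and 1 control library was made into stranded mRNA libraries, per the labels' protocols. Tools listed without a role or order in the submitters' processing notes are FastQC, STAR 2.7.3a, Cufflinks 2.2.1, HTSeq, edgeR and DESeq2, with mm10 as the build. The authors deposited raw read counts per gene, FPKM values scaled by length and depth, and TPM values scaled to a fixed total, as named in the file headers. The second deposited table holds a normalized signal for 19550 genes, which equals the read count over 1 constant per library (42.6 for CKO, 30.1 for control) and was not used further.

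Counts were scaled with TMM (edgeR 4.0.16, R 4.3.3) to effective sizes of 42.6 (CKO) and 30.1 (control) Mreads. Log2 ratios use CPM + 0.5, which understates low genes; printed fold values are plain CPM ratios. The minimum was 1 CPM in either library. A count of 0 in a library allows up to 0.0705 CPM (CKO) or 0.0996 CPM (control), taken as 3 reads. Intervals were computed with scipy 1.17.1, and sequence tables are RefSeq GRCm38.p6, the assembly of mm10. The log2 ratio and ratio interval steps, but not the TMM scaling, were tested on simulated counts that held counting error only. The 10 genes and 18 lists were chosen with earlier results of these data known. Named in each list are up to 4 genes with the largest absolute log2 ratio, the most abundant gene and, for transport and hormone lists, all at 2-fold or more; genes named beyond these were picked after their values were seen. Alternatives were DESeq2 1.42.0 size factors, total counts with and without the 50 most abundant and mitochondrial genes, pseudocounts of 0.1 and 2, minimums of 0 and 10 CPM, a 1.5-fold limit, and the authors' FPKM and TPM.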

Additional observations from a re-analysis of the deposited data

How the results depend on the processing

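No paired analysis was possible because each group is 1 library, and leaving out a replicate was not possible for the same reason. Of the 10 genes, the number called higher was 1 and became 2 with the authors' TPM, where Umod reached a log2 ratio of 1.07, and 2 with a 1.5-fold limit, which also put 2 genes, Calb1 and S100g, among those called lower in place of 0. The median log2 ratio of the 10 was 0.15, and was 0.46 with total counts, 0.34 with total counts without the 50 most abundant and mitochondrial genes, 0.55 with TPM and 0.44 with FPKM. Over all expressed genes, the number called higher was 1552, and was 2391 with total counts, 825 with a pseudocount of 2 CPM, 2613 with TPM, 573 with a minimum of 10 CPM and 2920 with a 1.5-fold limit. The number called lower was 251, and was 102 with total counts, 158 with total counts without the most abundant and mitochondrial genes, 167 with a pseudocount of 2 CPM, 139 with TPM, 102 with FPKM and 1037 with a 1.5-fold limit. A lower limit and a higher minimum act on these counts by construction; for the other settings the cause was not tested. With 10 CPM, 9 of the 10 genes were left. Low counts widen the counting intervals of Trpv6, Ephb6 and Calcr, with 26, 21 and 20 reads in the control library, and no alternative replaces the missing replicates.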
